A study of Mus musculus with 6 samples.

Results

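Genes for the subunits of the mitochondrial respiratory chain were followed in early thymic progenitors, thymus cells at the start of the T-cell pathway. RNA was measured on 6 Affymetrix mouse genome arrays, 3 of Tcf1-/- and 3 of Tcf1-/+ mice. Tcf1 is a transcription factor that pairs with beta-catenin and acts early in T-cell development. The cells were sorted from the thymus as lineage-negative, CD44+, CD25-, kit+ cells, and all mice were of the C57Bl/6 strain and 10 weeks old. The titles name the control genotype as Tcf1-/+, while another label field calls it wild type, so the control is called Tcf1-/+ here as in the titles. The labels do not give the promoter, exon or line of the disrupted allele, the sex of the mice or the number of animals behind each array. On average 1000 cells yielded 3 ng of total RNA, and this RNA went through whole-transcriptome amplification before labelling.

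A gene was taken as a member when its probe set carried a single symbol of the Nduf, Sdh, Uqcr, Cyc1 or Cox (numbers 4 to 8) series, with assembly factors and pseudogenes left out. The rule used names and no measured difference, though it was chosen with earlier results of these data known. It found 63 of the 18193 genes represented on the arrays. Complex I held 35 of them, complex II 4, complex III 9 and complex IV 15. Each gene was represented by the probe set with the highest mean over the 6 arrays, and 132 probe sets in all belonged to the 63 genes. Cox7b had no probe set with a single symbol and was not analysed here. By its symbol Ndufa4 was counted with complex I, although the protein is now placed in complex IV.

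The respiratory chain lies in the inner mitochondrial membrane and passes electrons from NADH and succinate to oxygen. Complex I takes electrons from NADH, complex II from succinate, complex III hands them to cytochrome c, and complex IV reduces oxygen. Complexes I, III and IV pump protons, and ATP synthase uses the gradient. Most subunits are encoded in the nucleus, and many of their promoters bind NRF1, the ETS-family factor GABP or YY1. Thymic progenitors divide repeatedly before they commit to the T lineage, and proliferating cells draw on both glycolysis and respiration.

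Of the 63 genes, 51 had a promoter window of 250 bases before to 50 bases after the start in the RefSeq table (mouse assembly GRCm38.p6), with 53 windows in all. On either strand, the NRF1 core letters GCGCATG stood in 9 of the 53 windows (17.0%), against 1021 of 21263 windows of protein-coding genes (4.80%). The letters CCGGAAG of the ETS (GABP) site stood in 11 windows (20.8%), against 11.6% of all protein-coding windows. AAGATGG, a YY1 site, stood in 7 (13.2%), against 6.24%. At least 1 of these 3 stood in 22 of the 53 windows (41.5%) and in 20.5% of all protein-coding windows. A match of letters describes the window and was not tied to binding. The 250 bases before the start are printed for 3 genes whose genotypes did not overlap on the arrays and which had a window: Ndufa6 (chr15:82354292-82354541, minus strand), Sdhb (chr4:140961021-140961270, plus strand) and Cox7a2l (chr17:83514334-83514583, minus strand). Capitals mark a match to the NRF1 core, here read on the opposite strand as CATGCGC.
Ndufa6: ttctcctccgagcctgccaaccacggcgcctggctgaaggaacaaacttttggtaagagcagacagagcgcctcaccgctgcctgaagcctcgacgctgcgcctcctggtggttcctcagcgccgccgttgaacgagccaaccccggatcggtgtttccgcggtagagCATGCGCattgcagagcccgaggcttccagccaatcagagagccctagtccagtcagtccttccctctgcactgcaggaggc
Sdhb: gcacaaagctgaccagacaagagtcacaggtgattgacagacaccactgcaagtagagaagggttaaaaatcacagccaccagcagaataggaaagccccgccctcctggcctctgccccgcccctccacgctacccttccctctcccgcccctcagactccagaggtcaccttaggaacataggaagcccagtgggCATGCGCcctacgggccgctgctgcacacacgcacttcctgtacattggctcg
Cox7a2l: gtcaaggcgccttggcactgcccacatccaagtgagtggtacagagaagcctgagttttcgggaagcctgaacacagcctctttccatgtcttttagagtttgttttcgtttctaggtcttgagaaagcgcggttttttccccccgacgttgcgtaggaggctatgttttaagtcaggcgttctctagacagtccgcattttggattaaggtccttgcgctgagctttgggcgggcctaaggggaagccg
The match begins 82 bases before the start of Ndufa6 and 53 bases before that of Sdhb. The Sdhb window also held CCGGAAG, beginning 6 bases after the start and so outside the stretch printed. The Cox7a2l window held none of the 3 motifs.

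Values are log2 levels as deposited. The array medians lay between 5.80 and 5.86, and the 95th percentile of 27 bacterial control probe sets, 5.21, was taken as background. Both genotype means lay above it for 59 of the 63 subunit genes (93.7%) and for 12111 of all 18193 genes (66.6%). Cox7a1 and Cox7b2 lay under it in both genotypes, Ndufb1 in Tcf1-/+ and Ndufb4 in Tcf1-/-, and the size of their differences is not well measured. Tcf1-/- replicate 2 stood apart from the others: its correlations with the other arrays were 0.870 to 0.893, against 0.913 to 0.933 among the rest. Its 3′ minus 5′ difference for the transferrin receptor control probe sets was 0.05, against -1.08 to -0.62 on the others. For the Gapdh control it was 2.78, inside the range of 1.74 to 2.89 on the others. For the Actb control it was -0.19, close to the -0.17 to -0.07 on the others. Y-linked genes were at a mean log2 level of 8.42 to 9.39 on Tcf1-/- replicates 2 and 3 and Tcf1-/+ replicate 2, and at 4.01 to 5.0 on Tcf1-/- replicate 1 and Tcf1-/+ replicates 1 and 3, a split that does not follow the genotypes. Tcf7, the gene of Tcf1, had no probe set with a name here and was not analysed here, so the labels were not checked on the targeted gene. Among the defining markers of the sorted cells, Kit read 9.99, 7.45 and 9.60 in Tcf1-/- and 10.80, 10.50 and 9.83 in Tcf1-/+. Cd44 read 10.31, 9.68 and 10.29 in Tcf1-/- and 10.39, 9.60 and 9.94 in Tcf1-/+. Both genes were thus measured above background on every array, and Kit was lowest on Tcf1-/- replicate 2.

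The first comparison was of all subunit genes between the genotypes, to ask whether the respiratory chain was expressed at another level in progenitors without Tcf1. Tcf1-/- means were lower for 39 of the 63 genes (61.9%) and higher for 24, where 45.7% of all genes and 52.1% of the brighter genes defined next had a lower mean. The median difference, Tcf1-/- minus Tcf1-/+, was -0.16 on the log2 scale, against 0.04 over all 18193 genes and -0.03 over the 10629 genes whose mean level exceeded 5.88, the median of all probe sets. Single differences ran from -1.18 for Ndufa6 to 0.49 for Uqcr10, with 14 genes at 0.5 or more in size and 3 at 1 or more. The 3 were Ndufa6, Sdhb and Ndufc1, all with lower Tcf1-/- means. Each of the 4 complexes held genes with lower and genes with higher means.

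None of the 63 genes passed the adjusted threshold in limma with Benjamini-Hochberg adjustment, as none did among all 45037 probe sets (0%), and the smallest adjusted p of a subunit gene was 0.407, for Ndufa6. At an unadjusted p under 0.05, 2 genes (3.17%) were lower in Tcf1-/-, Ndufa6 and Cyc1, against 3.4% of all genes, and 0 were higher, against 3.38%. Counted in either direction the background was 6.78%, and among the 10629 brighter genes it was 4.78% lower, 4.44% higher and 9.22% in either direction, so the subunit genes' share was not above it. Of the 132 probe sets, 5 were lower at that level (3.79%), against 3.51% of all probe sets, and 0 were higher, against 2.97%. Without Tcf1-/- replicate 1 the count of subunit genes was 6 of 63 (9.52%), against 7.50% of all genes. Without Tcf1-/+ replicate 1 it was 4 (6.35%), against 5.61%. The arrays of the genotypes did not overlap for 6 genes in the lower direction (9.52%), against 4.94% of all genes, and for 1 in the higher direction (1.59%), against 7.22%. Among the 10629 brighter genes those backgrounds were 6.37% and 6.55%. Over all 132 probe sets of the subunits, 12 did not overlap in the lower direction (9.09%), against 5.27% of all probe sets, and 1 in the higher (0.758%), against 6.51%. For 26 of the 63 genes the 95% confidence interval of the difference lay within -1 and 1, so a change of 2-fold or more lay outside it, and for the other 37 it did not. In these sorted cells a lower level per cell and a smaller share of cells that carry a transcript cannot be told apart.

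**Figure D1:**
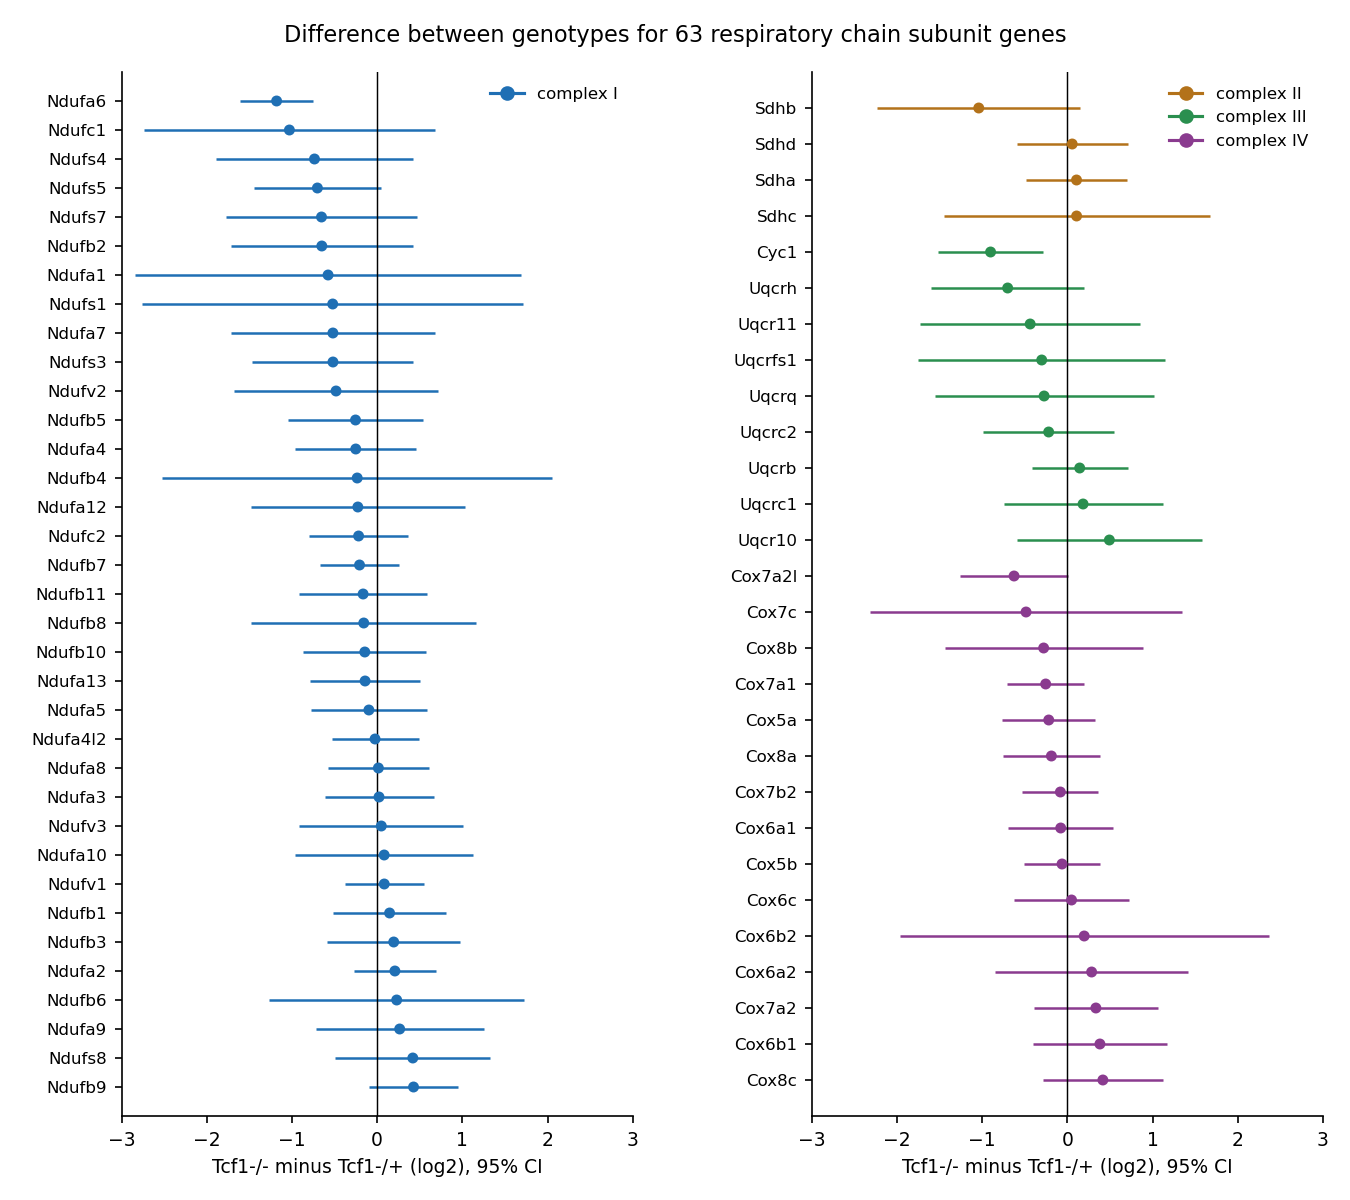
Difference between genotypes (Tcf1-/- minus Tcf1-/+, log2) with its 95% confidence interval from limma for each of the 63 subunit genes, complex I on the left and complexes II to IV on the right, sorted within each complex. The intervals of Ndufa6 and Cyc1 leave out 0, and those of the other 61 genes hold it.

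**Figure D2:**
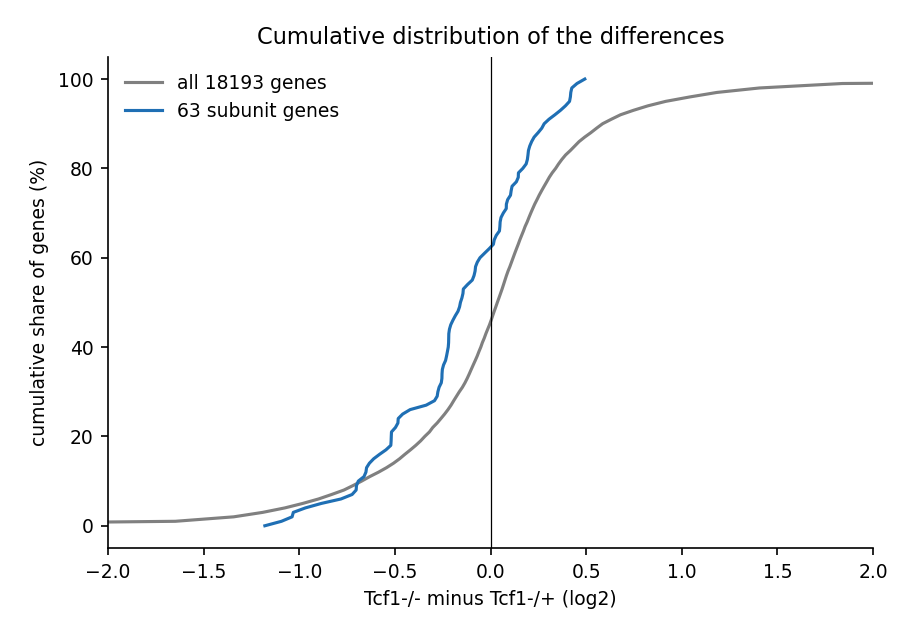
Cumulative share of genes (%) against the difference between genotypes (log2) for the 63 subunit genes and for all 18193 genes, drawn from percentiles. The curve of the subunit genes lies to the left of the other around 0, with medians of -0.16 and 0.04, and ends at 0.49.

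Complex I, the largest of the complexes, carried the gene with the smallest p-value of the 63. The median over its 35 genes was -0.16, with 23 lower and 12 higher means in Tcf1-/-. Ndufa6 encodes an accessory subunit of the LYR-motif family on the matrix arm. It read 8.24, 8.10 and 8.15 in Tcf1-/- and 9.38, 9.30 and 9.35 in Tcf1-/+. All Tcf1-/- arrays lay below all Tcf1-/+ arrays, with a gap of 1.05 between the nearest arrays of the genotypes. The means were 8.16 ± 0.08 and 9.34 ± 0.04 (SD, n = 3 arrays each), a difference of -1.18 (SE 0.17) with a 95% interval of -1.61 to -0.75, or 2.27-fold lower in Tcf1-/-. The unadjusted limma p was 0.000506 and the adjusted p 0.407. The spread of Ndufa6 within genotypes was the smallest of the 63 genes (pooled SD 0.06). Among arrays with low Y-linked levels the difference was -1.12, and among those with high levels -1.18. The low arrays held only replicate 1 of Tcf1-/-, and the high arrays only replicate 2 of Tcf1-/+. The gene had 1 probe set, so no second probe set bears on it.

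The core of complex I, which carries the flavin and the iron-sulphur clusters that electrons pass through, was measured by Ndufs1, Ndufs3, Ndufs7, Ndufs8, Ndufv1 and Ndufv2. Ndufs1, the largest of these core subunits, read 9.62, 5.83 and 7.88 in Tcf1-/- and 8.54, 8.09 and 8.27 in Tcf1-/+. Its lowest value was on Tcf1-/- replicate 2 and its highest on Tcf1-/- replicate 1, and the difference of -0.52 (SE 0.91) was 0.45 without replicate 2. Ndufs3, a core subunit on the way to the quinone site, differed by -0.52 (SE 0.39). Ndufs7, which holds the iron-sulphur cluster next to the quinone, differed by -0.65 (SE 0.46). Ndufv2, which holds a cluster beside the flavin, differed by -0.48 (SE 0.49). Ndufv1, which binds NADH and the flavin, read 11.40, 11.18 and 11.18 in Tcf1-/- and 11.19, 11.05 and 11.28 in Tcf1-/+. The groups overlapped, with a difference of 0.08 (SE 0.19). Ndufs8, another cluster-bearing subunit, differed by 0.42 (SE 0.37), while 4 of the 5 further probe sets of this gene pointed the other way, so its direction depends on the probe set. None of the 6 core genes had an unadjusted p under 0.05.

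Accessory subunits of complex I with the next smallest p-values also gave no call. Ndufs5, on the intermembrane-space side, read 6.82, 6.55 and 6.34 in Tcf1-/- and 6.74, 7.38 and 7.69 in Tcf1-/+. The Tcf1-/- arrays overlapped Tcf1-/+ replicate 1, and the difference was -0.70 (SE 0.31) with an adjusted limma p of 0.800. Ndufb9, a membrane-arm subunit of the LYR family, read 11.51, 11.62 and 11.94 in Tcf1-/- and 11.20, 11.13 and 11.46 in Tcf1-/+. It was the only subunit gene whose arrays did not overlap in the higher direction, with a gap of 0.05 and a difference of 0.43 (SE 0.22). Its other probe sets differed by -0.27 and 1.29, the first in the opposite direction. The second read 8.93 on Tcf1-/- replicate 1 and 5.03 to 5.48, near background, on all other arrays. Ndufc1, a small membrane-arm subunit, read 11.26, 8.73 and 11.18 in Tcf1-/- and 11.28, 11.49 and 11.49 in Tcf1-/+. Its groups did not overlap, by a gap of 0.02, but the difference of -1.03 (SE 0.70) was -0.20 without Tcf1-/- replicate 2. Ndufs4, an accessory subunit of the NADH-oxidizing part whose loss causes a Leigh-like encephalopathy in mice, read 9.92, 8.63 and 10.31 in Tcf1-/- and 10.32, 10.06 and 10.68 in Tcf1-/+. The difference was -0.74 (SE 0.47), and -0.24 without Tcf1-/- replicate 2. The other 3 Ndufs4 probe sets differed by -1.24, -0.10 and 0.54, and the first, with a Tcf1-/- mean under background, had an unadjusted p of 0.008. Ndufb2, a membrane-arm subunit, differed by -0.65 (SE 0.44).

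Ndufa4 and its paralogue Ndufa4l2, which is known from hypoxic cells, gave small differences. Ndufa4 differed by -0.25 (SE 0.29) and Ndufa4l2 by -0.02 (SE 0.21). Ndufb7 and Ndufb11, both of the membrane arm, were picked out after their values were seen. Ndufb7 differed by -0.21 (SE 0.19) on the probe set used here and by -1.20 on the second, whose arrays did not overlap. Ndufb11 differed by -0.16 (SE 0.31) and by -1.08 and -0.13 on its other probe sets. Ndufa12, Ndufa3, Ndufa5, Ndufb6 and Ndufc2 each had another probe set of opposite sign, and their differences lay between -0.23 and 0.23. That probe set of Ndufa12 had both genotype means under background. Of the 35 genes, 15 had a 95% interval within -1 and 1.

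Complex II, succinate dehydrogenase, is also an enzyme of the citrate cycle, and all 4 of its subunits are encoded in the nucleus. Its median difference was 0.08, with 1 lower and 3 higher means. Sdhb, the iron-sulphur subunit, read 10.22, 8.58 and 10.09 in Tcf1-/- and 10.30, 10.96 and 10.76 in Tcf1-/+. The groups did not overlap, with a gap of 0.07, and Tcf1-/- replicate 2 lay 1.51 below the next lowest array. The difference was -1.04 (SE 0.49), with an unadjusted limma p of 0.0771 and an adjusted p of 0.819, and it was -0.51 without that array. Sdha, the flavin subunit that oxidizes succinate, read 12.21, 12.08 and 12.50 in Tcf1-/- and 11.95, 12.01 and 12.51 in Tcf1-/+. The groups overlapped and the difference was 0.11 (SE 0.24). Sdhc and Sdhd, which anchor the enzyme in the membrane, differed by 0.11 (SE 0.64) and 0.06 (SE 0.27). For Sdha, Sdhc and Sdhd the sign turned when all probe sets of the gene were averaged, to -0.35, -0.12 and -0.02. The Sdha probe sets with lower means (-0.17 and -1.34) had Tcf1-/- means under background, and its other further probe set differed by 0.01.

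Complex III passes electrons from ubiquinol to cytochrome c. Its median difference was -0.27 over 9 genes, 6 lower and 3 higher. Cyc1 encodes cytochrome c1, the haem subunit that hands electrons to cytochrome c, and read 8.59, 8.24 and 7.87 in Tcf1-/- and 8.99, 9.32 and 9.10 in Tcf1-/+. All Tcf1-/- arrays lay below all Tcf1-/+ arrays, with a gap of 0.40. The means were 8.23 ± 0.36 and 9.13 ± 0.17 (SD, n = 3 arrays each), a difference of -0.90 (SE 0.25) or 1.87-fold lower in Tcf1-/-, with a 95% interval of -1.52 to -0.28. The unadjusted limma p was 0.0117 and the adjusted p 0.610. Among arrays with low Y-linked levels the difference was -0.46, for Tcf1-/- replicate 1 alone against Tcf1-/+ replicates 1 and 3. It was -1.26 among those with high levels, for Tcf1-/- replicates 2 and 3 against Tcf1-/+ replicate 2 alone. Without Tcf1-/- replicate 2 the difference over the other arrays was -0.91.

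Another redox subunit of complex III, the Rieske iron-sulphur protein Uqcrfs1, read 9.30, 7.10 and 8.77 in Tcf1-/- and 8.91, 8.25 and 8.90 in Tcf1-/+. It was lowest on Tcf1-/- replicate 2 and highest on Tcf1-/- replicate 1, with a difference of -0.30 (SE 0.59) that was 0.34 without replicate 2. Uqcrh, the acidic hinge subunit that helps cytochrome c1 meet cytochrome c, read 10.94, 9.60 and 10.09 in Tcf1-/- and 10.81, 10.91 and 11.01 in Tcf1-/+. The difference was -0.70 (SE 0.37), with Tcf1-/- replicate 1 inside the range of the Tcf1-/+ arrays. On its other probe set the arrays did not overlap and the difference was -0.37. The core subunits Uqcrc1 and Uqcrc2, which are structural and carry no redox group, differed by 0.18 (SE 0.38) and -0.22 (SE 0.32). Of the small subunits, Uqcr10 differed by 0.49 (SE 0.44) and Uqcr11 by -0.44 (SE 0.53). Uqcrb and Uqcrq, which help hold the complex together near the quinone site, differed by 0.14 (SE 0.23) and -0.27 (SE 0.53).

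In complex IV, cytochrome c oxidase, 9 genes had lower and 6 higher means, and the median was -0.08. Cox7a2l, a relative of the Cox7a subunits, read 12.13, 12.21 and 12.13 in Tcf1-/- and 13.09, 12.94 and 12.32 in Tcf1-/+. The groups did not overlap, with a gap of 0.10 between the highest Tcf1-/- array and Tcf1-/+ replicate 3. The difference was -0.63 (SE 0.26), with an unadjusted limma p of 0.0512 and an adjusted p of 0.775, and -0.65 without Tcf1-/- replicate 2. Its other probe sets differed by -0.44 and -0.94 in the same direction.

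The other complex IV genes are nuclear subunits around the catalytic core, which is encoded in the mitochondrial genome. Cox5b, which binds zinc, read 12.76, 12.67 and 12.87 in Tcf1-/- and 12.76, 12.78 and 12.94 in Tcf1-/+. Its groups overlapped and the difference was -0.06 (SE 0.18). Cox5a differed by -0.22 (SE 0.22). Cox6c and Cox7c, small membrane subunits, differed by 0.05 (SE 0.28) and -0.48 (SE 0.75). The second probe set of Cox7c had the opposite sign, with both genotype means under background. Complex IV also uses isoforms that differ by tissue, of which one is the common form and others are known from muscle, heart or testis. The common Cox6a1 differed by -0.08 (SE 0.25) and the muscle form Cox6a2 by 0.28 (SE 0.46). Cox6b1 differed by 0.38 (SE 0.32) and the testis form Cox6b2 by 0.20 (SE 0.88). Cox7a2 differed by 0.33 (SE 0.30), and the heart and muscle form Cox7a1, under background on all arrays, by -0.25 (SE 0.19). The common Cox8a differed by -0.19 (SE 0.23), the muscle form Cox8b by -0.28 (SE 0.48) and Cox8c, known from testis, by 0.42 (SE 0.29). Cox7b2, a testis form, was under background.

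**Figure D3:**
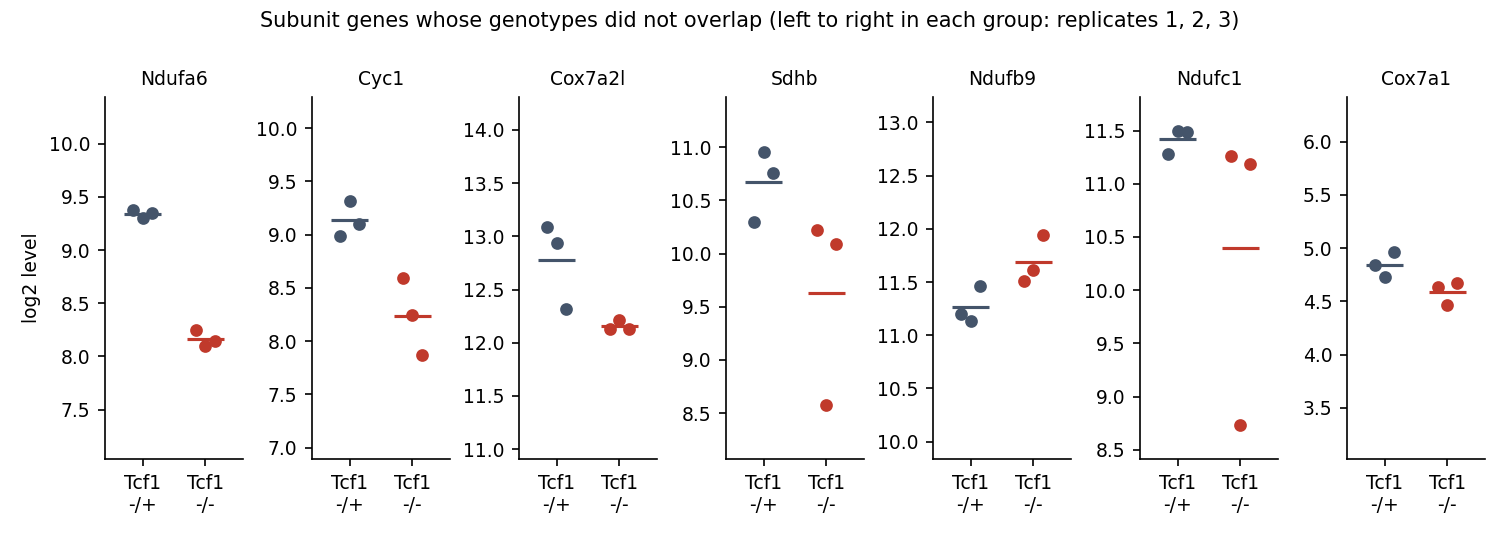
Log2 level on each array for the 7 subunit genes whose genotypes did not overlap, with a line at each group's mean. All axes span the same number of log2 units, so gaps can be set side by side: only Ndufa6 (1.05) and Cyc1 (0.40) had gaps over 0.2, Tcf1-/- replicate 2 is the lowest array for Sdhb and Ndufc1, and Cox7a1 lies under the background of 5.21.

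Across arrays, Tcf1-/- replicate 2 held the lowest of the 6 values for 26 of the 63 genes (41.3%), against 19.3% of all genes and 27.6% of the brighter genes. For 7 genes (11.1%) it lay at least 1 log2 unit below the other 5 arrays, against 4.13% of all genes and 6.84% of the brighter ones. These were Ndufa1 (2.57 below the next), Ndufc1 (2.45), Ndufs1 (2.05), Sdhb (1.51), Ndufs4 (1.30), Uqcrfs1 (1.15) and Ndufa12 (1.02), named after their values were seen. Mean levels relative to each gene's own mean were 0.18, -0.32 and -0.11 in Tcf1-/- and 0.12, -0.06 and 0.20 in Tcf1-/+, and these ranges overlap. Without replicate 2 the median difference was -0.06, with 35 of 63 lower means, against 0.01 over all genes. Ndufa6 and Cyc1 remained the 2 genes with an unadjusted p under 0.05. Its part in the lower median was not tested beyond this omission.

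By complex, complex I read 0.13, -0.46 and 0.01 in Tcf1-/- and 0.19, -0.11 and 0.24 in Tcf1-/+. Complex III read 0.42, -0.50 and -0.26 against 0.10, -0.06 and 0.30. Complex IV read 0.17, 0.06 and -0.30 against 0.01, -0.04 and 0.09. By this mean Tcf1-/- replicate 2 was the lowest array for complexes I, II and III and Tcf1-/- replicate 3 for complex IV. Counted by genes at their lowest value, replicate 2 also led in complex IV, with 6 of 15 against 4 for replicate 3. Among arrays with low Y-linked levels the median difference of the 63 genes was 0.00, with 31 lower, and among arrays with high levels it was -0.01, with 33 lower. The mean was lower in both for 15 genes.

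**Figure D4:**
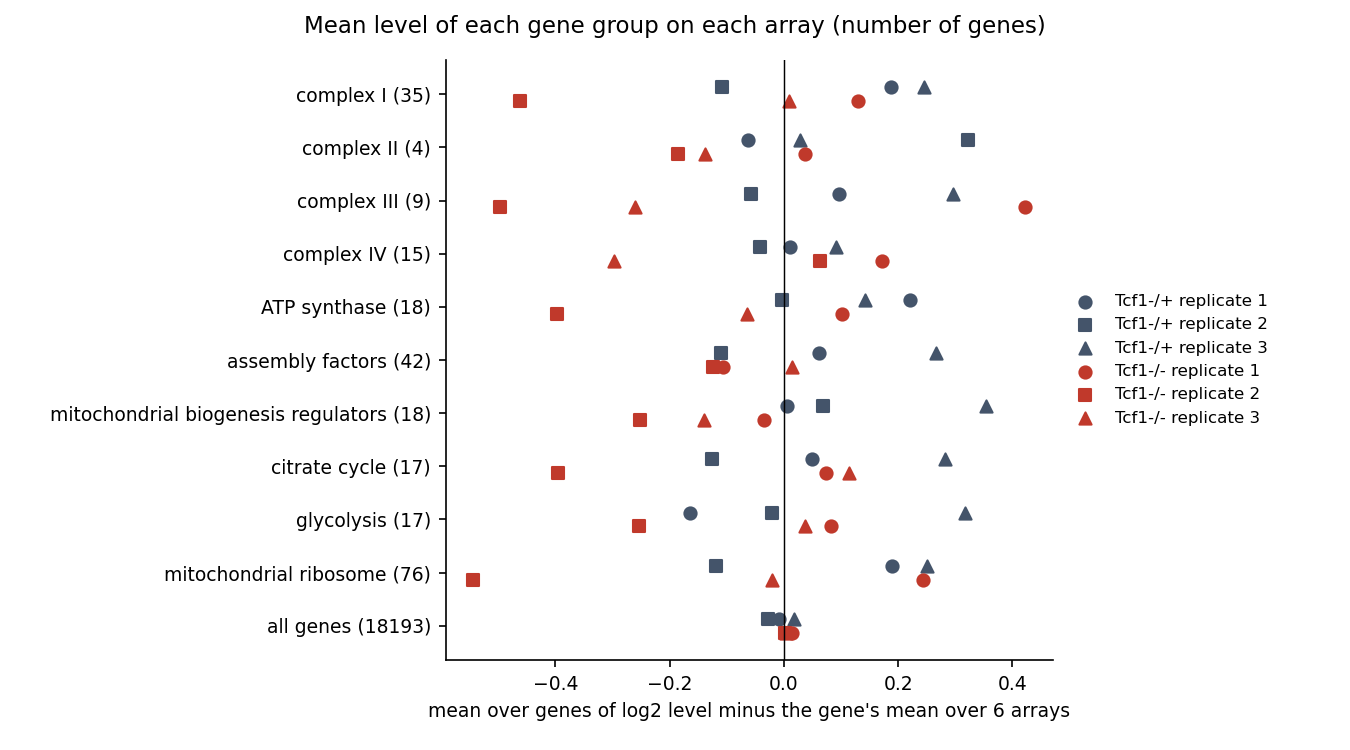
Mean over genes of the log2 level minus the gene's mean over 6 arrays, for each gene group (number of genes in brackets) on each array. Tcf1-/- replicate 2 (red square) is the lowest array for every group drawn except complex IV and all genes, glycolysis included. All genes together lie near 0 on every array.

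**Figure D5:**
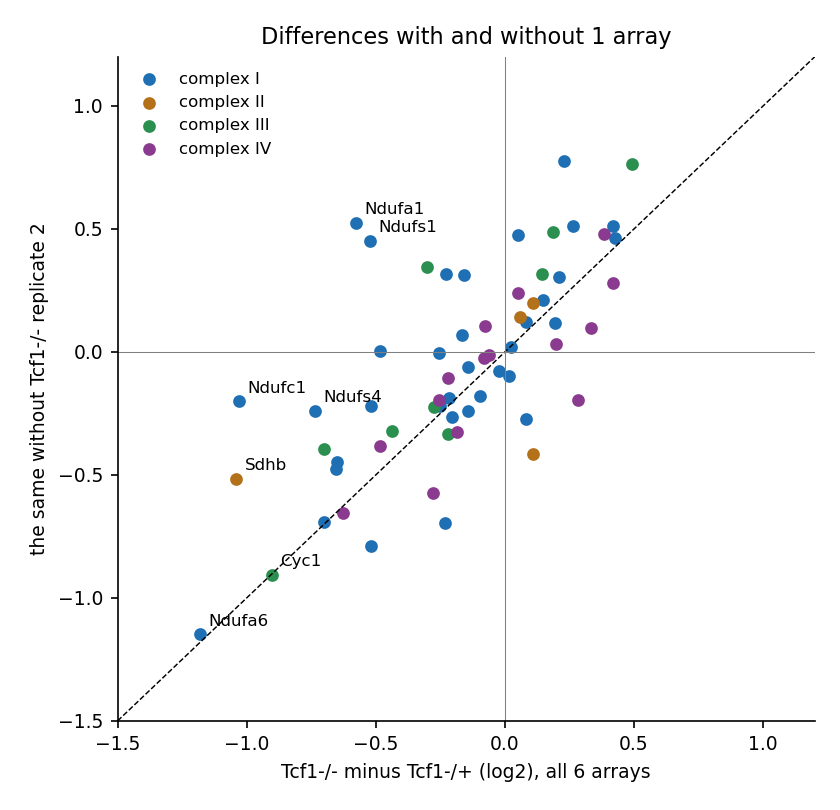
Difference of each of the 63 subunit genes without Tcf1-/- replicate 2 (vertical, log2) against the difference over all 6 arrays (horizontal, log2), coloured by complex, with the line of equality dashed. Ndufa6 and Cyc1 lie near the line, while Ndufc1, Sdhb and Ndufs4 lie above it, and 12 of the 63 genes change sign, Ndufs1 and Ndufa1 among them.

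The remaining genes of oxidative metabolism were read from the same fit. Subunits outside the symbol rule were listed with the cytochrome c genes Cycs and Cyct, and all 5 genes named there were measured. No gene of the mitochondrial genome was among them. Cox4i1 of complex IV differed by -0.26 (SE 0.38) and Ndufab1, the mitochondrial acyl carrier protein, by -0.29 (SE 0.31). Cox4i2, the lung and hypoxia isoform, differed by 0.13 (SE 0.35). ATP synthase, which makes ATP from the proton gradient, had lower means in 15 of 18 genes and a median of -0.20. Atp5c1, its gamma subunit, read 11.25, 10.75 and 11.84 in Tcf1-/- and 12.08, 12.17 and 12.17 in Tcf1-/+. The groups did not overlap and the difference was -0.86 (SE 0.31), with an adjusted limma p of 0.728. Atp5pb and Atp5e, a stalk and a rotor subunit, differed by -0.48 (SE 0.28) and -0.40 (SE 0.24).

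Assembly factors, which build the complexes but are not part of them, were lower in 22 and higher in 20 of 42 genes, with a median of -0.05. At an unadjusted p under 0.05, 3 were lower (7.14%) and 2 higher (4.76%), against 3.4% and 3.38% of all genes and 4.78% and 4.44% of the brighter ones. Ecsit, which acts in complex I assembly and in innate immune signalling, read 6.24, 6.02 and 6.62 in Tcf1-/- and 8.20, 7.72 and 7.74 in Tcf1-/+. The groups did not overlap and the difference was -1.59 (SE 0.26), with an adjusted limma p of 0.407. Bcs1l, which inserts the Rieske protein into complex III, read 5.75, 6.20 and 6.25 in Tcf1-/- and 8.06, 7.09 and 7.99 in Tcf1-/+. It differed by -1.65 (SE 0.33), adjusted p 0.464 in limma. Ndufaf3, another complex I factor, differed by 1.13 (SE 0.30). Ecsit and Bcs1l thus had lower Tcf1-/- levels on all arrays, and Ndufaf3 higher ones, none past the adjusted threshold.

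The list of mitochondrial biogenesis regulators held transcription factors and co-activators that drive nuclear and mitochondrial genes of the organelle. It also held genes that copy or transcribe mitochondrial DNA, such as Polg, Twnk and Polrmt. Means were lower in 13 of the 18 genes, with a median of -0.20. At an unadjusted limma p under 0.05, 2 were lower (11.1%, against 3.4% of all genes) and 0 higher (against 3.38%). Ppargc1b, a co-activator of the PGC-1 family, read 4.60, 5.26 and 5.34 in Tcf1-/- and 6.33, 6.74 and 6.60 in Tcf1-/+. The Tcf1-/- mean was under background, and the difference was -1.49 (SE 0.27), adjusted p 0.438 in limma. Tfb1m, a methyltransferase of the mitochondrial ribosomal RNA, differed by -1.18 (SE 0.42), and Myc by -0.88 (SE 0.41). Factors whose motifs were counted above, chosen after their values were seen, gave no call: Nrf1 differed by 0.28 (SE 0.70), Gabpa by -0.34 (SE 0.32) and Yy1 by -0.27 (SE 0.26).

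Proteins of the mitochondrial ribosome, which translates the mitochondrial subunits of the chain, were lower in 51 and higher in 25 of 76 genes, with a median of -0.24. At an unadjusted p under 0.05, 5 were lower (6.58%) and 1 higher (1.32%), against 3.4% and 3.38% of all genes and 4.78% and 4.44% of the brighter ones. Mrps18a differed by -1.40 (SE 0.28), Mrpl46 by 0.73 (SE 0.18) and Mrpl34 by -0.79 (SE 0.21). Of the 76 genes, 40 were lowest on Tcf1-/- replicate 2, more than on any other array. The citrate cycle, which feeds the chain, was lower in 11 of 17 genes with a median of -0.19 and 0 in either direction at an unadjusted p under 0.05. Citrate synthase (Cs) differed by 1.01 (SE 0.55), Sucla2 by -1.02 (SE 0.62) and Suclg1 by -0.80 (SE 0.49). Glycolysis, the other source of ATP, was lower in 10 of 17 genes, with a median of -0.08 and 1 gene in each direction (5.88%) at an unadjusted p under 0.05, against 3.4% lower and 3.38% higher of all genes. Slc2a1, the glucose transporter GLUT1, differed by -0.87 (SE 0.31), Pfkp by 1.09 (SE 0.42) and Ldhb by -1.03 (SE 0.46). None of these passed the adjusted threshold in limma.

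Marker lists of several cell types, the T lineage and early progenitors included, were read beside the subunits. NK and innate lymphoid markers were higher in 8 of 9 genes with a median of 2.43. Their mean level was 8.77 to 9.48 on the Tcf1-/- arrays against 6.99 to 7.49 on the Tcf1-/+ arrays. The genotypes did not overlap for 5 in the higher direction (55.6%, against 7.22% of all genes). In the lower direction they did not overlap for 1 (11.1%, against 4.94%), the NK receptor gene Klrd1 (-1.49). Prf1 (0.19) and Ncr1 (0.07) differed little. Gzmb, a granzyme, and below it Klf1 were picked out after their values were seen. Gzmb read 11.08, 9.59 and 10.78 in Tcf1-/- and 6.16, 5.38 and 7.73 in Tcf1-/+. Of these markers Ncr1 was under background in both genotypes. Erythroid markers were at 6.02 to 7.90 on the Tcf1-/- arrays and 5.15 to 7.62 on the Tcf1-/+ arrays, with 7 of 9 higher. Klf1, an erythroid transcription factor, read 8.99, 7.78 and 8.40 in Tcf1-/- and 5.06, 4.87 and 9.32 in Tcf1-/+. It was low on Tcf1-/+ replicates 1 and 2 alone, and the haemoglobin gene Hba-a1 was under background. Myeloid markers lay at 7.78 to 9.50 and 7.08 to 9.13, with 8 of 11 higher. Dendritic markers lay at 7.31 to 8.54 and 7.41 to 9.03, with 3 of 8 higher. B-lineage markers lay at 6.26 to 6.73 and 5.70 to 6.27, with 6 of 7 higher and a median difference of 0.13. Of these Blk differed by 2.44 and the others by -0.59 to 0.52. Stromal markers lay at 6.06 to 6.28 and 5.61 to 6.19, with 6 of 6 higher and a median difference of 0.09. Ebf1 (B lineage), Itgam (myeloid) and Col3a1 (stromal) were under background in both genotypes. T-lineage and early progenitor markers lay at 9.35 to 9.41 and 9.25 to 9.82, with 3 of 9 higher. These means hide single markers that moved in both directions. The genotypes did not overlap for 2 lower markers (22.2%, against 4.94% of all genes), Flt3 (-1.53) and Cd34 (-1.24). They also did not overlap for 2 higher markers (22.2%, against 7.22%), Thy1 (2.48) and Il7r (2.00). None of the 9 passed the adjusted threshold. Which cells carried these transcripts, and their part in the subunit values, was not tested.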

How the data were processed

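RNA of 3 Tcf1-/- and 3 Tcf1-/+ samples of sorted early thymic progenitors was amplified and hybridized to 6 arrays, per the labels' protocols. The deposited values are log2 levels per probe set, between 2.15 and 14.8; the scale was taken from the values, and the authors' summary method and normalization are not given in the sources used here. No further normalization was applied. Of 45101 probe sets, 64 controls were left out. The platform annotation gave 1 symbol to 34945 of the 45037 tested, several to 932 and none to 9160, and 34741 matched RefSeq genes of GRCm38.p6. Probe sets with several symbols named no gene. The table held 0 unused value columns.

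The test of Tcf1-/- against Tcf1-/+ was limma's (version 3.58.1, R 4.3.3; two-sided lmFit and eBayes fit, no covariates) over all tested probe sets, with Benjamini-Hochberg adjustment and a threshold of 0.05. The script was tested on simulated data. An exact permutation test was not used, since with 3 arrays a group its smallest p is 0.1. The titles call the arrays biological replicates, and p-values measure only the spread between them. Arrays have no read depth, and their number limits the precision. Same-numbered arrays did not deviate together (correlations of 0.01 to 0.04), so no block was used.

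The members and lists were chosen with earlier results of these data known. Named genes are redox core subunits, isoform pairs, up to 6 of smallest p in each complex, genes with a probe set of opposite sign, and up to 3 of smallest p in each related list. Alternatives were another normalization (quantile or common median), a filter on mean level, a floor at background, other choices of probe set, array weights, the Y-linked level as a covariate, the replicate number as a block and leaving out each array. Differences within arrays of low or high Y-linked level were added after seeing the data.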

Additional observations from a re-analysis of the deposited data

How the results depend on the processing

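No subunit gene passed the adjusted threshold in limma under any of the alternatives run, and the differences of Ndufa6 (-1.22 to -1.15) and Cyc1 (-1.08 to -0.72) kept their sign in all of them, with adjusted p-values of 0.159 to 0.704 and 0.456 to 0.860. With the replicate block the median difference was -0.16 and 2 genes had an unadjusted p under 0.05, as without it. The 2 genes at an unadjusted p under 0.05 became 4 (6.35%) with a floor at background, against 5.47% of all genes, and 4 with the mean of all probe sets, against 7.24%. When 1 array was left out they were 2 to 6 (3.17% to 9.52%), against 5.61% to 8.09% of all genes. The 7 genes without overlap became 9 to 16 (14.3% to 25.4%) when 1 array was left out, where fewer arrays can overlap, against 20.8% to 25.7% of all genes; overlap was not counted under the block, the array weights or the covariate. The complex II median of 0.08 was -0.23 with the mean of all probe sets, -0.17 without s or x probe sets and -0.14 to 0.10 when 1 array was left out. The complex III median was 0.0034 with the Y-linked covariate, and that of complex IV 0.05 without s or x probe sets. The causes were not tested.

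Genes chosen by the naming rule that turned sign were all short of the threshold. With the mean of all probe sets these were Cox6a1 (0.12), Cox6c (-0.029), Cox7c (0.058), Ndufa3 (-0.22), Ndufa5 (0.037), Ndufb6 (-0.10), Ndufc2 (0.047), Ndufs8 (-0.18), Ndufv1 (-0.060), Sdha (-0.35), Sdhc (-0.12), Sdhd (-0.024) and Uqcrb (-0.22). Without s or x probe sets they were Cox5b (0.20), Cox7c (0.60), Cox8a (0.011), Ndufa12 (0.22), Ndufc2 (0.29), Ndufs8 (-0.58), Ndufv1 (-0.049), Sdhc (-0.35) and Uqcrq (0.12). With the Y-linked covariate they were Cox6a1 (0.0039), Ndufa3 (-0.093), Ndufa4l2 (0.050), Sdhc (-0.069), Uqcrfs1 (0.0034) and Uqcrq (0.10). Array weights turned Sdhc (-0.10) and quantile normalization Ndufa4l2 (0.030). The probe sets read for Cox7c and Ndufa12 without s or x probe sets had both genotype means under background.

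Among the same set of named genes, leaving out 1 array gave ranges across 0 for Cox6a1 (-0.18 to 0.11), Cox6a2 (-0.19 to 0.56), Cox6b2 (-0.48 to 1.04), Cox6c (-0.11 to 0.24), Cox7c (-1.12 to 0.088), Cox8b (-0.63 to 0.15), Ndufa12 (-0.54 to 0.32), Ndufa3 (-0.18 to 0.24), Ndufa4l2 (-0.11 to 0.10), Ndufa5 (-0.25 to 0.12), Ndufb6 (-0.22 to 0.78), Ndufs1 (-1.44 to 0.45), Ndufv2 (-0.86 to 0.0025), Sdha (-0.010 to 0.28), Sdhc (-0.42 to 0.60), Sdhd (-0.18 to 0.18), Uqcrc1 (-0.068 to 0.49), Uqcrfs1 (-0.76 to 0.34) and Uqcrq (-0.78 to 0.20).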
